A study of Mus musculus with 9 samples.

Results

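The transcripts described here are those of the Fgf2 locus and of the 3 FGF receptors whose probe sets were followed with it: Fgf2, Fgf2os, Nudt6, Fgfr1, Fgfr2 and Fgfr3. They are 6 of the 18193 genes with at least 1 probe set that the platform annotation gives to a single gene. Every such probe set of the 6 genes was taken, 12 in all, and each was kept by itself because Fgf2, Fgf2os and Nudt6 overlap on the genome. The genes were chosen with results of these data known: the set was chosen by the higher log2 signals of Fgf2os under light-emitting diode (LED) light, and the dim Fgf2 probe set was known too, so the differences of Fgf2os and Fgf2 between LED and control arrays are given as a description with no test. Nudt6 and the receptors were added for their position and family, and their differences were tested.

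Retinas of female BALB/c mice (Babl/c in the labels) aged 10 weeks were compared after 14 days of white LED light or of a dark environment. BALB/c is an albino strain, whose eyes lack the pigment that screens light. Warm white LED light had a colour temperature of 2954K and cold white LED light one of 7378K. Each was given at 1000 lx for 12 h a day. The controls are recorded with the same 12 h on and 12 h off, while no illuminance is given for them. What these hours mean in a dark environment is not given. Each array carried RNA pooled from 3 right-eye retinas, and each of the 3 groups had 3 arrays. No genetic change or drug treatment is given for any group, and the pooled tissue was neurosensory retina separated from the pigment epithelium.

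Fgf2, or basic fibroblast growth factor, is a secreted heparin-binding protein that signals through receptor tyrosine kinases. Binding of FGF together with heparan sulphate pairs the receptors, and the adaptor Frs2 then passes the signal to RAS, ERK and their feedback inhibitors. In the retina Fgf2 is known as a survival factor of photoreceptors whose production rises after light damage and mechanical injury. Nudt6 encodes a Nudix hydrolase and lies on the opposite strand, where its end overlaps the end of Fgf2. Fgf2os is an opposite-strand RNA with no known protein, which starts inside Fgf2 and runs across the start of Fgf2. The strand and place of each probe were not analysed here, so RNA from overlapping genes of the locus cannot be told apart beyond the names that the platform annotation gives.

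The start regions of the 3 overlapping genes are shown because the genes lie on one stretch of chromosome 3 and their probe sets were read together. Each sequence is the 250 bases before a RefSeq transcript start in build GRCm38.p6, written 5′ to 3′ on the strand of its own gene, with matches to any of 6 motifs in capitals.
Fgf2os chr3:37349842-37350091, minus strand: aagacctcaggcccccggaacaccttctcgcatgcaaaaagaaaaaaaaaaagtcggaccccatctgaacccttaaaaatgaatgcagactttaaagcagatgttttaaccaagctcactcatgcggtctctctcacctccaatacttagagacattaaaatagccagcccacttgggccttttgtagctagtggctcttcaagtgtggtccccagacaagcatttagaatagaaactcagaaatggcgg
Fgf2 chr3:37348403-37348652, plus strand: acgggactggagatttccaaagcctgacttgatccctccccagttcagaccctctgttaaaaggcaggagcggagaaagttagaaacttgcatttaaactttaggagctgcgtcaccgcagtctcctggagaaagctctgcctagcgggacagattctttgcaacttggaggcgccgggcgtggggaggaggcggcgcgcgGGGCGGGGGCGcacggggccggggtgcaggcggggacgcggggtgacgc
Nudt6 chr3:37419597-37419846, minus strand: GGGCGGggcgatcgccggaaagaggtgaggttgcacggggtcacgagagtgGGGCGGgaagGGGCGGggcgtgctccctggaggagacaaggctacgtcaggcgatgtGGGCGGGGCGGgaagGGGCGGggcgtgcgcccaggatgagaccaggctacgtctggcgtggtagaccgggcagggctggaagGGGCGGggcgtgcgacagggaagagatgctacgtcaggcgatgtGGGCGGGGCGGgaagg

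The motifs were searched on both strands as the STAT motif TTCNNNGAA, the AP-1 motif TGANTCA, the C/EBP motif TTGCNNAA, the GC box GGGCGG, the EGR motif GCGNGGGCG and the E-box CACGTG. Windows of this length before 32851 RefSeq starts held the STAT motif in 7.02%, the AP-1 motif in 6.75% and the C/EBP motif in 9.56%. They held the GC box in 32.7%, the EGR motif in 4.70% and the E-box in 6.02%. The window before Nudt6 held 9 GC boxes and was 71.6% G and C. The window before Fgf2, at 62.4% G and C, held 1 GC box that overlapped 1 EGR match. None of the 6 motifs was found in the window before Fgf2os, which was 44.8% G and C. These letters describe the windows and do not show that a factor bound there.

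Signals are on the log2 scale of the deposited values, on which 1 unit is a doubling. A probe set was tested when its mean over the 9 arrays was at or above 5.91, the 40th percentile of all probe set means, and 27009 probe sets passed this intensity filter. Of the 12 probe sets described here, 8 passed. The dimmest to pass was Fgfr1 1425911_a_at, with a mean of 6.08, and the brightest to miss was Fgf2 1449826_a_at, with a mean of 5.0. P-values came from limma and were adjusted by Benjamini-Hochberg over all 27009 probe sets, and a probe set was called at an adjusted p under 0.05. The pools are the replicates, and an array cannot tell a change in the number of cells of a type from a change in RNA per cell.

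Several measures of the arrays moved with the groups or with single arrays. The 3′ minus 5′ difference of the Gapdh and beta-actin control probe sets, a measure of RNA and labelling quality, was 0.20 to 0.42 in controls, 0.21 to 2.78 under 2954K and 1.55 to 1.80 under 7378K. Controls and 7378K arrays did not overlap in it. Fits with this measure as a covariate therefore cannot tell cold light from RNA quality in that comparison, and nothing is concluded from them. Array 3 of each group carried RNA of lens genes: Crybb2, a lens crystallin gene, read 14.75 on the control, 12.63 on the 2954K and 9.99 on the 7378K array of that number, against 3.08 to 7.69 on the other 6 arrays. The summed linear signal of 8 lens markers, of which 5 passed the filter, ranged from 264.8 to 93201.4 in controls, 192.4 to 16113.3 under 2954K and 129.7 to 3145.5 under 7378K. Of 8 pigment epithelium markers 7 passed and only Best1 did not, with sums of 13074.8 to 44129.6, 33706.1 to 46515.0 and 19809.2 to 39233.1 in the same order, so the separation of the tissues was incomplete by this measure. The retina's own defining genes were bright on every array. Sums of 5 rod markers were 110740.9 to 141474.2, 96617.9 to 130723.9 and 102628.7 to 119886.8, and those of 6 Müller glia markers were 44403.8 to 47665.0, 47060.7 to 51037.6 and 45127.9 to 49561.0.

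Fgf2os, the opposite-strand RNA at the start of Fgf2, was the probe set with the widest gap between LED and control arrays among the 12. Fgf2os 1443200_at read 6.39, 6.13 and 6.48 in controls, 9.97, 10.40 and 10.67 under 2954K, and 10.77, 10.87 and 10.98 under 7378K. Every LED array lay above every control array, and the control arrays lay close to the intensity filter. The group means were 6.34 ± 0.18, 10.35 ± 0.35 and 10.87 ± 0.10 (SD, n = 3 each). The 2954K mean stood 4.01 above control, or 16.1-fold, and the 7378K mean 4.54 above control, or 23.2-fold. These differences helped to choose the genes and carry no test. Fitted with the 3′ minus 5′ measure in the model they were 4.21 and 4.80.

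Between the LED lights, the 7378K arrays of Fgf2os all lay above the 2954K arrays, by at least 0.10. The difference was 0.53 (SE 0.18, 95% confidence interval 0.13 to 0.93), with an adjusted p of 0.911 by limma. Without 2954K 1 it was 0.34 (adjusted p = 0.314), and without any other single array it was 0.47 to 0.69. Of all probe sets tested in this comparison 0% were called, 0 of 27009, with 1346 at an unadjusted p under 0.05. Groups that did not overlap were found for 9.40% of all probe sets and for 2 of the 8 that passed here, Fgf2os and Fgfr2 1433489_s_at. The order of the means was control, 2954K, 7378K, and the last step of that order was not called.

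Nudt6, the Nudix hydrolase gene that overlaps the end of Fgf2, rose under both lights by its probe set 1456945_at. Nudt6 1456945_at read 9.70, 9.14 and 9.28 in controls, 11.89, 12.11 and 12.07 under 2954K, and 12.29, 12.35 and 12.11 under 7378K. The LED arrays stood clear of the controls and within each light differed little from each other. The means were 9.37 ± 0.29, 12.02 ± 0.12 and 12.25 ± 0.13 (SD, n = 3 each). Under 2954K it rose by 2.65 (SE 0.14, 95% confidence interval 2.33 to 2.96), or 6.27-fold, with an adjusted p of 9.7e-06. Under 7378K it rose by 2.88 (SE 0.14, 95% confidence interval 2.56 to 3.19), or 7.34-fold, with an adjusted p of 3.8e-06. The difference between the lights was 0.23 (95% confidence interval -0.09 to 0.54) with an adjusted p of 0.911, and the LED groups overlapped. Both LED calls held in each of 17 alternative fits, with highest adjusted p-values of 0.00972 and 0.00391.

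The other Nudt6 probe set showed smaller differences. Nudt6 1424510_at read 7.77, 7.33 and 7.10 in controls, 8.19, 8.29 and 8.81 under 2954K, and 8.56, 8.51 and 8.22 under 7378K. Both LED groups lay above all controls, and the LED groups overlapped each other. Its differences were 1.03 under 2954K (SE 0.23, 95% confidence interval 0.52 to 1.55, 2.04-fold, adjusted p = 0.110) and 1.03 under 7378K (SE 0.23, 95% confidence interval 0.51 to 1.54, 2.04-fold, adjusted p = 0.049). Only the 7378K difference was called, and the difference between the lights was -0.003 (95% confidence interval -0.52 to 0.51), or 0.0041 with median centring of the arrays. The 7378K call was lost without any 1 control array, with adjusted p-values of 0.0642, 0.191 and 0.119 for arrays 1 to 3. It was also lost without any 1 of the 7378K arrays (0.187, 0.16 and 0.119), with the 3′ minus 5′ covariate (0.196), with no filter (0.0626) and with no intensity trend (0.0944). The difference itself was 0.88 to 1.21 with 1 array left out and 1.13 with the covariate. The 2954K difference was called without array 2954K 2, at an adjusted p of 0.0309.

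The differences of the Nudt6 probe sets were not of one size. The signal of 1456945_at minus that of 1424510_at, whose size in 1 array has no meaning by itself, was 1.81 to 2.19 in controls, 3.25 to 3.82 under 2954K and 3.74 to 3.89 under 7378K. On average it was 1.62 and 1.85 larger than in controls, and in both cases the LED arrays did not overlap the controls. The two-sided exact permutation test gave p = 0.1 for each light, the smallest that 3 against 3 arrays allow, and 0.1 after adjustment over both. Which transcripts of Nudt6, or of the overlapping Fgf2, each probe set reads was not tested.

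Fgf2 itself, the growth factor of the locus, was dim. Fgf2 1449826_a_at read 4.58, 3.64 and 2.28 in controls, 4.38, 6.87 and 6.30 under 2954K, and 5.77, 5.64 and 5.55 under 7378K. Array 2954K 1 lay among the controls and was the array with the largest 3′ minus 5′ difference, 2.78, while all 7378K arrays lay above all controls. The means were 3.50 ± 1.16, 5.85 ± 1.30 and 5.66 ± 0.11 (SD, n = 3 each), all below the filter value of 5.91, so no fold and no test are given. The 2954K mean was 2.35 higher than control and the 7378K mean 2.16 higher. With the 3′ minus 5′ covariate these differences were 3.38 and 3.51.

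**Figure D1:**
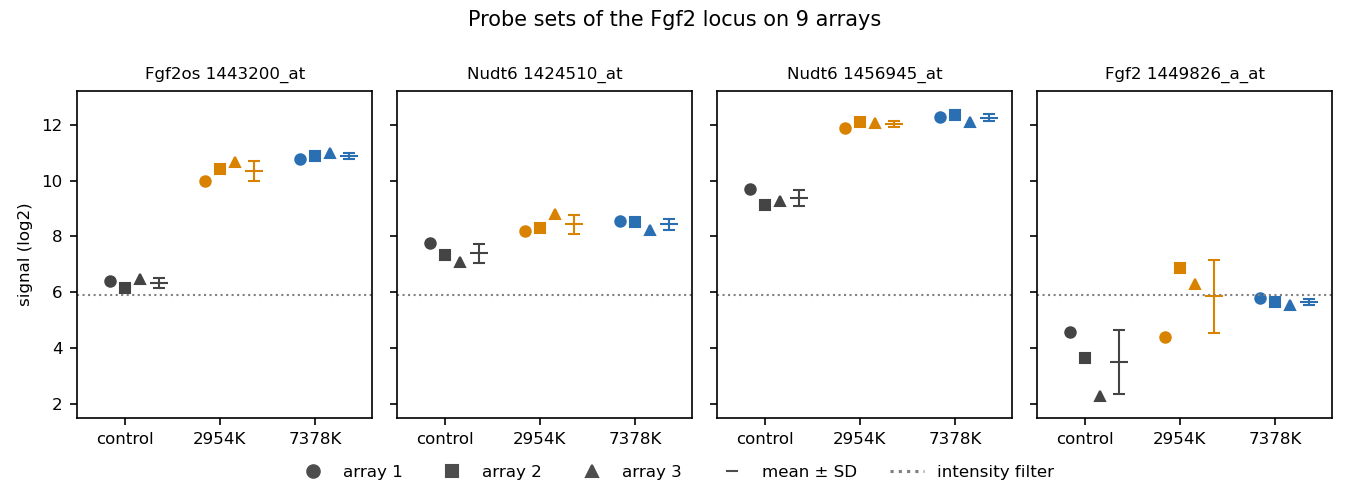
Log2 signal of the 4 probe sets of the Fgf2 locus on each of the 9 arrays, with 1 panel per probe set and the groups control, 2954K and 7378K on the horizontal axis. Points are arrays, bars are the mean ± SD of 3 arrays, and the dotted line is the intensity filter at 5.91. Fgf2os has means of 6.34, 10.35 and 10.87, both Nudt6 probe sets are higher on every LED array than on any control array, and all group means of Fgf2 lie below the filter.

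Sums of microglia and astrocyte markers were higher on every LED array than on any control array, whereas those of endothelial markers overlapped between control and 2954K. The summed linear signal of 6 microglia markers, 5 of which passed the filter, was 1867.3 to 2730.8 in controls, 6280.8 to 7084.2 under 2954K and 6574.7 to 7470.8 under 7378K. The sum of the 3 measured astrocyte markers was 679.3 to 762.7, 889.6 to 1241.8 and 964.3 to 1123.1. Of these markers S100b overlapped, with log2 signals of 8.23 to 8.32 in controls, 8.25 to 8.93 under 2954K and 7.86 to 8.54 under 7378K. The sum of 6 endothelial markers, 4 of which passed, was 1874.7 to 2162.7, 1689.2 to 2866.7 and 2215.3 to 2249.2. Their part in the signals of Fgf2os, Nudt6 and Fgf2 was not tested.

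The FGF receptors are the membrane kinases that FGF ligands bind, and no receptor probe set was called in any comparison. Of their 8 probe sets 5 passed the filter: 3 of Fgfr1, 1 of Fgfr2 and 1 of Fgfr3. By limma 0 of the 5 were called under 2954K, beside 0.548% of all probe sets tested, and 0 under 7378K, beside 2.20%. Under each light 1 had an unadjusted p under 0.05, beside 11.7% and 22.1% of all. Between the lights 0 were called, beside 0% of all, and none had an unadjusted p under 0.05, beside 4.98%. With 5 probe sets, nothing is read from these counts.

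Fgfr1, a receptor that binds Fgf2, had 3 passing probe sets with unlike patterns. Fgfr1 1424050_s_at read 7.89, 7.79 and 8.76 in controls, 8.75, 8.64 and 9.28 under 2954K, and 9.22, 9.10 and 8.86 under 7378K. Control 3, the array with the highest lens signal, was the highest control and lay above 2 of the 2954K arrays, whereas all 7378K arrays lay above all controls. The differences were 0.74 under 2954K (SE 0.26, 95% confidence interval 0.17 to 1.32, adjusted p = 0.339) and 0.92 under 7378K (SE 0.26, 95% confidence interval 0.34 to 1.49, adjusted p = 0.086). Neither was called in the reported fit. Without control 3 the 7378K difference was 1.22 and was called, with an adjusted p of 0.0281. It was also called, at 0.0436, without 2954K 1 and without 2954K 2, arrays outside this comparison. With the 3′ minus 5′ covariate its adjusted p was 0.462. A call thus came or went with which single array was left out. The suffix _s_at marks probes that can match more than 1 transcript.

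Fgfr1 1436551_at read 7.00, 7.01 and 2.34 in controls, 7.20, 7.23 and 7.43 under 2954K, and 7.35, 7.68 and 7.66 under 7378K. All LED arrays lay above all controls, narrowly except for control 3, which was far below the others. The differences were 1.84 under 2954K (95% confidence interval -0.29 to 3.96, adjusted p = 0.472) and 2.11 under 7378K (95% confidence interval -0.01 to 4.24, adjusted p = 0.228). They rested on control 3 and were 0.28 and 0.56 without it. The control mean of 5.45 lay below the filter value, so this probe set passed through its LED arrays, and no fold is given. Controls 1 and 2 by themselves lay above that value.

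Fgfr1 1425911_a_at went the other way, with 6.54, 7.11 and 7.05 in controls, 3.34, 6.76 and 6.32 under 2954K, and 6.11, 5.21 and 6.27 under 7378K. Array 2954K 1, with the largest 3′ minus 5′ difference, was the lowest, and all 7378K arrays lay below all controls. Both LED means, 5.48 and 5.86, lay below the filter value, which this probe set passed only through its controls. The differences were -1.42 (95% confidence interval -3.07 to 0.23, adjusted p = 0.472) and -1.04 (95% confidence interval -2.68 to 0.61, adjusted p = 0.446). Without 2954K 1 the 2954K difference was -0.35. With the 3′ minus 5′ covariate they were -0.01 and 0.82, the latter of the opposite sign. The other passing probe sets of Fgfr1 had higher means under both lights. None of these differences was called, so no direction is read for this gene.

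Fgfr2, a receptor for several FGFs of the same family, had 1 probe set above the filter. Fgfr2 1433489_s_at read 6.86, 6.58 and 8.84 in controls, 7.29, 8.03 and 7.43 under 2954K, and 6.94, 4.65 and 6.93 under 7378K. Control 3 was the highest of the 9 arrays and 7378K 2 the lowest. The difference was 0.16 under 2954K (95% confidence interval -1.32 to 1.65, adjusted p = 0.942) and -1.25 under 7378K (95% confidence interval -2.74 to 0.24, adjusted p = 0.302). All 7378K arrays lay below all 2954K arrays, with a difference of -1.41 (95% confidence interval -2.90 to 0.08, adjusted p = 0.911). Without control 3 the differences from control were 0.87 and -0.54, and without 7378K 2 the 7378K differences were -0.49 from control and -0.65 from 2954K.

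The other Fgfr2 probe sets were below the filter and give values only. Fgfr2 1420847_a_at ranged from 1.27 to 6.47 in controls, 5.46 to 5.99 under 2954K and 0.92 to 5.89 under 7378K. Fgfr2 1443211_at ranged from 2.59 to 6.12, 3.07 to 5.69 and 3.31 to 4.92. Their groups overlapped in every comparison.

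Fgfr3, the remaining receptor, had LED means close to its control mean. Fgfr3 1421841_at read 6.76, 6.67 and 8.98 in controls, 7.74, 7.40 and 7.00 under 2954K, and 7.53, 7.08 and 7.76 under 7378K. Control 3 was again the highest of the 9 arrays, and the other controls were the lowest. The differences were -0.09 under 2954K (95% confidence interval -1.23 to 1.06, adjusted p = 0.962) and -0.01 under 7378K (95% confidence interval -1.16 to 1.14, adjusted p = 0.995), where the latter was 0.05 with quantile normalization and 0.07 with median centring. Without control 3 they were 0.67 and 0.75, with adjusted p-values of 0.466 and 0.228. The part of lens RNA in the receptor signals of control 3 was not tested. Fgfr3 1425796_a_at, below the filter, ranged from 3.34 to 6.01 in controls, 3.71 to 4.96 under 2954K and 3.22 to 3.65 under 7378K. Its 7378K arrays lay below its 2954K arrays and overlapped the controls.

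**Figure D2:**
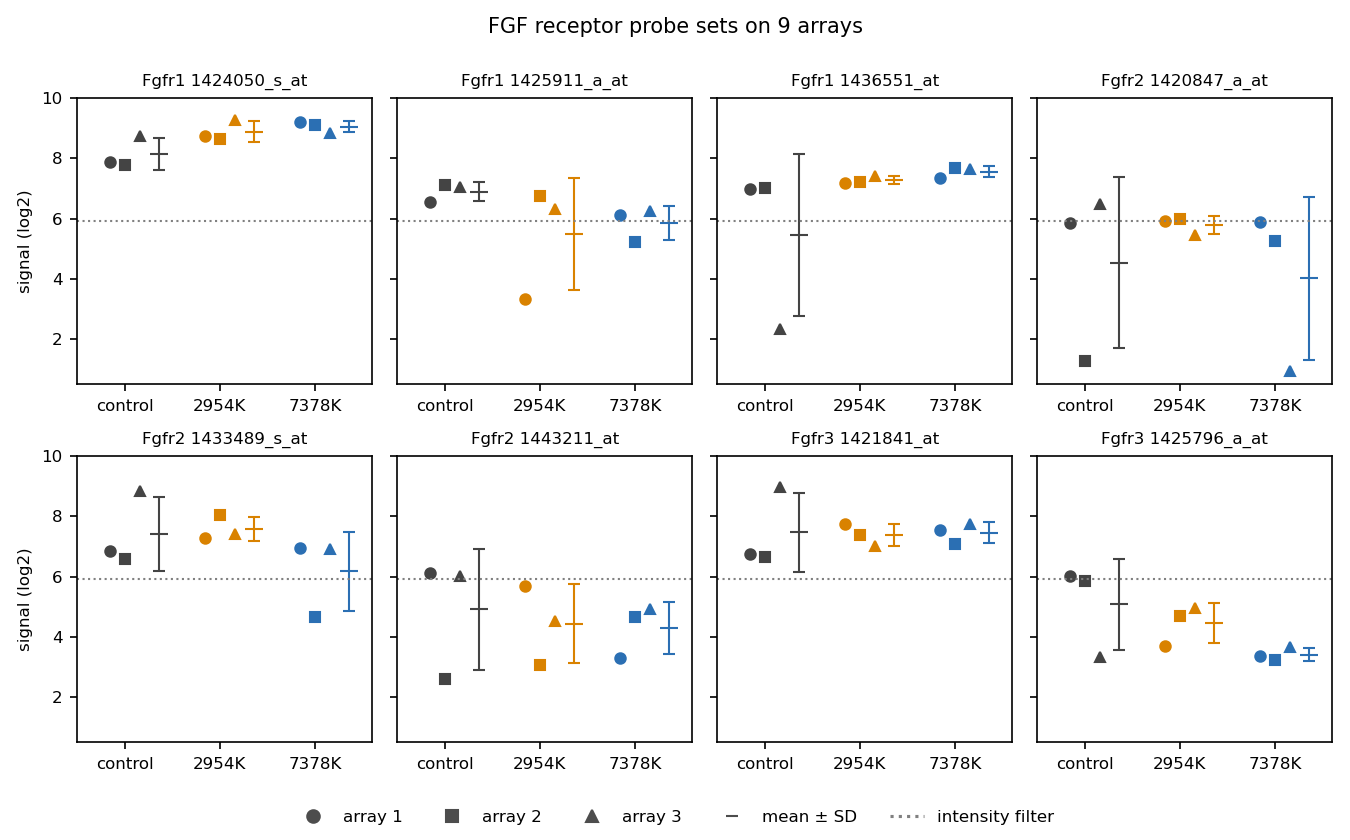
Log2 signal of the 8 probe sets of Fgfr1, Fgfr2 and Fgfr3 on the 9 arrays, with 1 panel per probe set, points for arrays, bars for the mean ± SD of 3 arrays and a dotted line at the filter value of 5.91. Control 3 (dark triangle) is the highest array for Fgfr2 1433489_s_at and Fgfr3 1421841_at, at 8.84 and 8.98, and the lowest for Fgfr1 1436551_at, at 2.34.

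Counted together, 1 of the 7 probe sets with a test was called under 2954K, Nudt6 1456945_at, beside 0.548% of all probe sets tested (148 of 27009). Under 7378K 2 of 7 were called, both of Nudt6, beside 2.20% of all (594 of 27009). Groups did not overlap for 4 of the 8 probe sets that passed under 2954K, beside 13.8% of all, and for 6 of 8 under 7378K, beside 36.2% of all. Fgf2os stands in these last counts, and so do Fgfr1 probe sets with a group mean below the filter value, so nothing is read from them. The LED comparisons share their 3 control arrays and are not independent of each other.

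**Figure D3:**
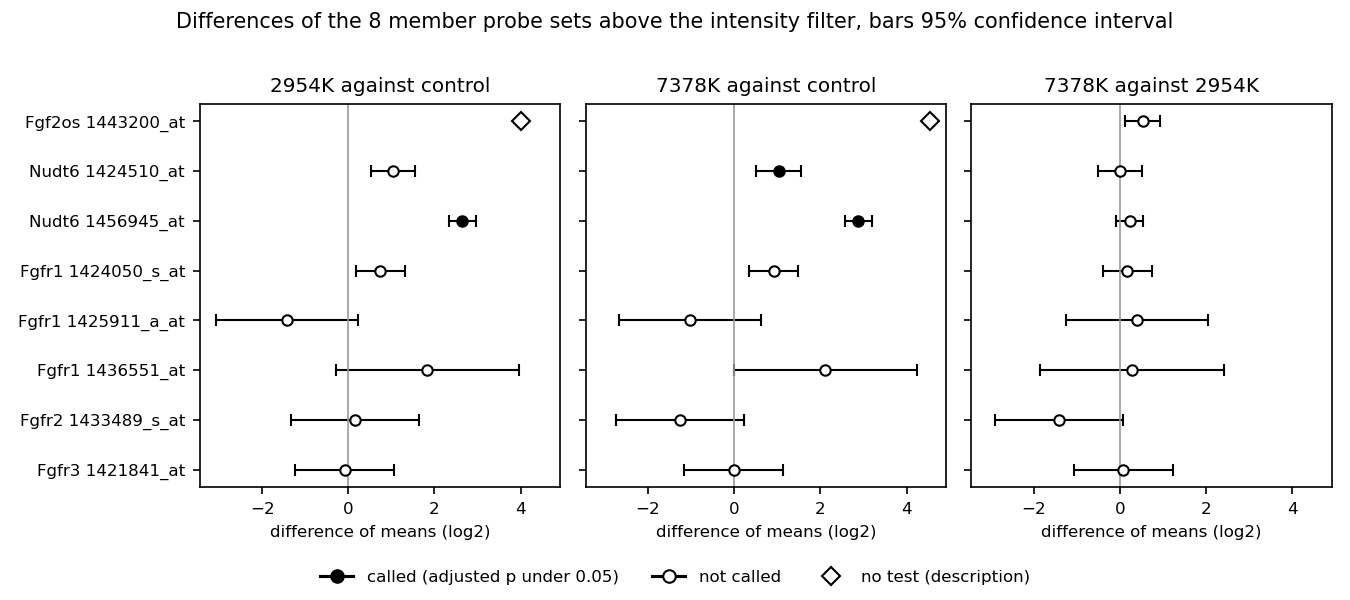
Log2 differences of group means for the 8 probe sets that passed the filter, with 1 panel per comparison. Bars are 95% confidence intervals, filled circles are called, open circles are not called, and diamonds are the Fgf2os values given without a test. Nudt6 1456945_at lies at 2.65 and 2.88 under the LED lights, and the intervals of Fgfr1 1425911_a_at, Fgfr2 1433489_s_at and Fgfr3 1421841_at include 0 in every panel.

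Genes around the receptors were read from 6 lists of the FGF pathway, which hold none of the 6 genes above. Of 103 genes listed 93 were measured, and 135 probe sets of 70 genes passed the filter. Under 2954K limma called 0 of the 135, beside 0.548% of all probe sets, with 26 (19.3%) at an unadjusted p under 0.05 beside 11.7% of all. Under 7378K 3 rose and 2 fell, or 3.7% beside 2.20% of all, with 43 (31.9%) at an unadjusted p under 0.05 beside 22.1% of all. Between the lights 0 were called, beside 0% of all, with 7 (5.19%) at an unadjusted p under 0.05 beside 4.98% of all. Each of the 5 calls under 7378K was lost with the 3′ minus 5′ covariate, with no intensity trend and in most fits that left out 1 array, while the differences kept their sign.

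The other secreted ligands held 17 genes, of which 4 genes with 6 probe sets passed the filter. None was called under either light, with 2 at an unadjusted p under 0.05 in each. The median difference was -0.26 under 2954K and -0.35 under 7378K, where the medians over all probe sets tested were -0.02 and 0.01. Fgf1, the acidic fibroblast growth factor that binds all FGF receptors, had 2 passing probe sets, neither of them called. Fgf1 1423136_at had means of 10.16 ± 0.03 in controls, 9.92 ± 0.15 under 2954K and 9.77 ± 0.10 under 7378K, with adjusted p-values of 0.442 and 0.0965. Fgf1 1450869_at had means of 7.95 ± 0.22, 7.27 ± 0.40 and 7.22 ± 0.37, with adjusted p-values of 0.393 and 0.159. In both, all LED arrays lay below all controls. Fgf9, a ligand with a role in eye development, had 1 probe set lower and 1 higher: 1420795_at differed by -0.45 and -0.31 and 1438718_at by 0.38 and 0.26, with none called.

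The intracellular FGF-related factors, which bind sodium channels rather than receptors, held 4 genes with 8 passing probe sets, and none was called. There was 1 at an unadjusted p under 0.05 under 2954K and 4 under 7378K, and the medians were 0.07 and 0.19. Fgf14 1447480_at had means of 5.44, 6.46 and 7.06, with LED arrays all above controls and adjusted p-values of 0.396 and 0.0693. The control mean of this probe set lay below the filter value, which it passed only through its LED arrays, so no fold is given. The other passing probe sets of Fgf14 differed otherwise: 1435747_at by -0.50 and 0.18, and 1458830_at by 0.06 and -0.15, none called. Fgf13 1418497_at had means of 11.36, 11.52 and 11.73, with adjusted p-values of 0.649 and 0.137.

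Other FGF receptors and co-receptors held 9 genes, of which 7 with 12 probe sets passed, and none was called. There was 1 at an unadjusted p under 0.05 under 2954K and 0 under 7378K, and the medians were 0.09 and 0.22. Flrt1 and Flrt2 encode membrane proteins with leucine-rich repeats that bind FGF receptors. Flrt1 1460041_at had means of 7.59, 8.12 and 7.84, with adjusted p-values of 0.419 and 0.560. Flrt2 1438702_at had means of 7.66, 8.11 and 7.37, with adjusted p-values of 0.560 and 0.614. The other passing probe sets of Flrt2 differed by 0.29 and 0.22 (1455096_at) and by -0.24 and -0.47 (1456874_at), none called.

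Heparan sulphate core proteins and enzymes, which make the co-factor of FGF binding, held 33 genes, of which 25 with 46 probe sets passed. None was called under 2954K, with 8 at an unadjusted p under 0.05, while 1 rose and 1 fell under 7378K, with 14 at an unadjusted p under 0.05. The medians were 0.02 and 0.07. Agrn, which encodes the heparan sulphate proteoglycan agrin, rose under 7378K: Agrn 1426670_at had means of 10.26 ± 0.12, 10.82 ± 0.26 and 11.01 ± 0.17, a 7378K difference of 0.76 (SE 0.14) and an adjusted p of 0.026. Ext1, a glycosyltransferase that extends the heparan sulphate chain, fell under 7378K: Ext1 1417730_at had means of 10.69 ± 0.17, 10.04 ± 0.19 and 9.92 ± 0.07, a 7378K difference of -0.77 (SE 0.13) and an adjusted p of 0.0155. Under 2954K Agrn 1426670_at differed by 0.56 and Ext1 1417730_at by -0.65, neither called (adjusted p = 0.171 and 0.0638). With the 3′ minus 5′ covariate the 7378K differences were 0.61 for Agrn and -0.61 for Ext1, with adjusted p-values of 0.228 and 0.148. Of the 9 fits without 1 array, 3 kept the call of Agrn and 4 that of Ext1. The Agrn call was lost without any 1 control or 7378K array, with a highest adjusted p of 0.116. That of Ext1 was lost without control 2, control 3 or any 1 of the 7378K arrays, with a highest adjusted p of 0.0842.

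The adaptors and the RAS-ERK cascade held 25 genes, of which 17 were measured and passed with 40 probe sets. None was called under 2954K, with 6 at an unadjusted p under 0.05, while 1 rose and 1 fell under 7378K, with 13 at an unadjusted p under 0.05. The medians were 0.04 and -0.0004. Gab1, a docking protein that links activated FGF receptors to PI3 kinase and Ptpn11, rose under 7378K in 1 of its 2 passing probe sets: Gab1 1417693_a_at had means of 8.77 ± 0.11, 9.57 ± 0.28 and 9.47 ± 0.12. Its 7378K difference was 0.70 (SE 0.16) with an adjusted p of 0.0469, and its 2954K difference of 0.81 missed the call with an adjusted p of 0.0543. The other, 1417694_at, differed by 0.20 under 7378K and was not called (adjusted p = 0.493). Araf, one of the RAF kinases of the cascade, fell under 7378K in 1 of its probe sets: Araf 1435566_s_at had means of 10.75 ± 0.14, 9.84 ± 0.68 and 9.48 ± 0.15, a 7378K difference of -1.27 (SE 0.27) and an adjusted p of 0.0379. Under 2954K Araf 1435566_s_at differed by -0.90 and was not called (adjusted p = 0.249). The other passing probe sets of Araf were not called. Under 7378K 1445693_at differed by -1.15 (adjusted p = 0.0863), 1428607_at by -0.29, 1426602_at by -0.20 and 1440764_at by 0.18. With the covariate the 7378K differences were 0.56 for Gab1 and -0.56 for Araf, with adjusted p-values of 0.361 and 0.159. The call of Gab1 was also lost with no filter and with median centring. Both calls were lost without any 1 control or 7378K array, and that of Araf also without 2954K 3, with highest adjusted p-values of 0.191 and 0.167.

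ERK feedback inhibitors and FGF target genes held 15 genes, of which 13 with 23 probe sets passed. None was called under 2954K, with 8 at an unadjusted p under 0.05, while 1 rose and 0 fell under 7378K, with 10 at an unadjusted p under 0.05. The medians were 0.12 and 0.18. Spred1, an inhibitor of RAS signalling, rose under 7378K in 1 probe set: Spred1 1423160_at had means of 9.26 ± 0.13, 9.87 ± 0.16 and 9.87 ± 0.15, a 7378K difference of 0.61 (SE 0.14) and an adjusted p of 0.0475. Its 2954K difference was 0.62 and missed the call, with an adjusted p of 0.0958. The other 5 passing probe sets of Spred1 differed by -0.81 (1428777_at, adjusted p = 0.135) to 0.68 (1452911_at, adjusted p = 0.140) under 7378K, none called. With the covariate the 7378K difference of 1423160_at was 0.47, with an adjusted p of 0.365. The call was lost with no filter, with median centring, without any 1 control or 7378K array and without 2954K 3, with a highest adjusted p of 0.194.

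**Figure D4:**
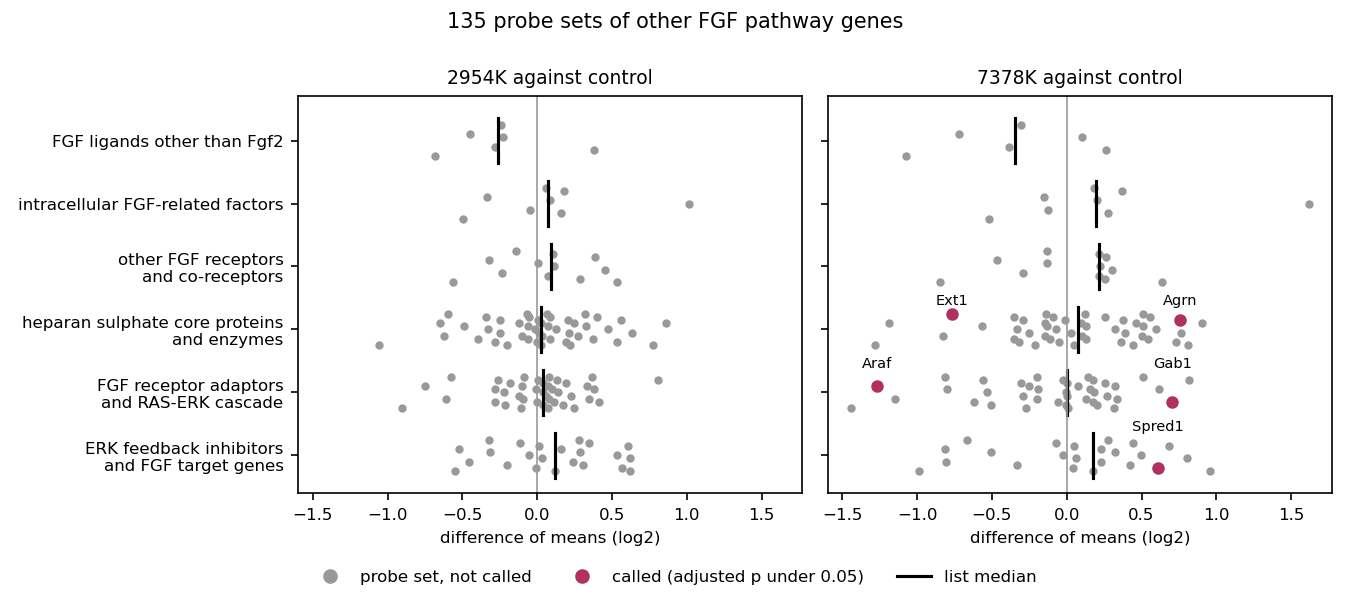
Log2 differences from control of the 135 passing probe sets of 6 FGF pathway lists, under 2954K (left) and 7378K (right). Each point is a probe set, black lines are list medians and coloured points are called. No probe set is called under 2954K, and Agrn, Gab1 and Spred1 (higher) and Ext1 and Araf (lower) are called under 7378K.

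Genes on either side of the locus were read to see which probe sets next to it were called, taking the 5 nearest protein-coding genes on each side in the RefSeq order. On the side of Fgf2os, Cetn4, which encodes a centrin, rose under both lights. Cetn4 1436617_at had means of 9.58 ± 0.10 in controls, 10.39 ± 0.04 under 2954K and 10.38 ± 0.09 under 7378K. It rose by 0.80 in each (SE 0.11), with adjusted p-values of 0.00573 and 0.00396, and both calls held without any 1 array. They were lost, at adjusted p-values of 0.148 and 0.0975, when array 3 of each group was left out together. Over all 17 alternative fits the differences were 0.78 to 0.88 under 2954K and 0.76 to 0.88 under 7378K. Its second probe set, 1445511_at, differed by 1.63 and 1.07 and was not called (adjusted p = 0.168 and 0.166). The control mean of 1445511_at was 5.57, below the filter value, which this probe set passed only through its LED arrays. The size of its differences is therefore not compared with that of 1436617_at.

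Bbs12, the gene between Cetn4 and the locus and a chaperonin-like gene of cilia, differed by 0.04 and 0.23, with adjusted p-values of 0.883 and 0.196. Il21, Il2 and Adad1 farther out had no probe set above the filter. On the side of Nudt6, no neighbour was called. Spata5 had 3 passing probe sets with differences from -0.28 to 0.39. Spry1, an inhibitor of FGF receptor signalling that is also in the feedback list, differed by 0.01 (95% confidence interval -0.34 to 0.36) and -0.02 (95% confidence interval -0.38 to 0.33). Gm5148 differed by -0.46 and -0.20, Ankrd50 by -0.05 and 0.03, and the passing probe sets of Fat4, a large cadherin, by -0.09 to 0.21.

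**Figure D5:**
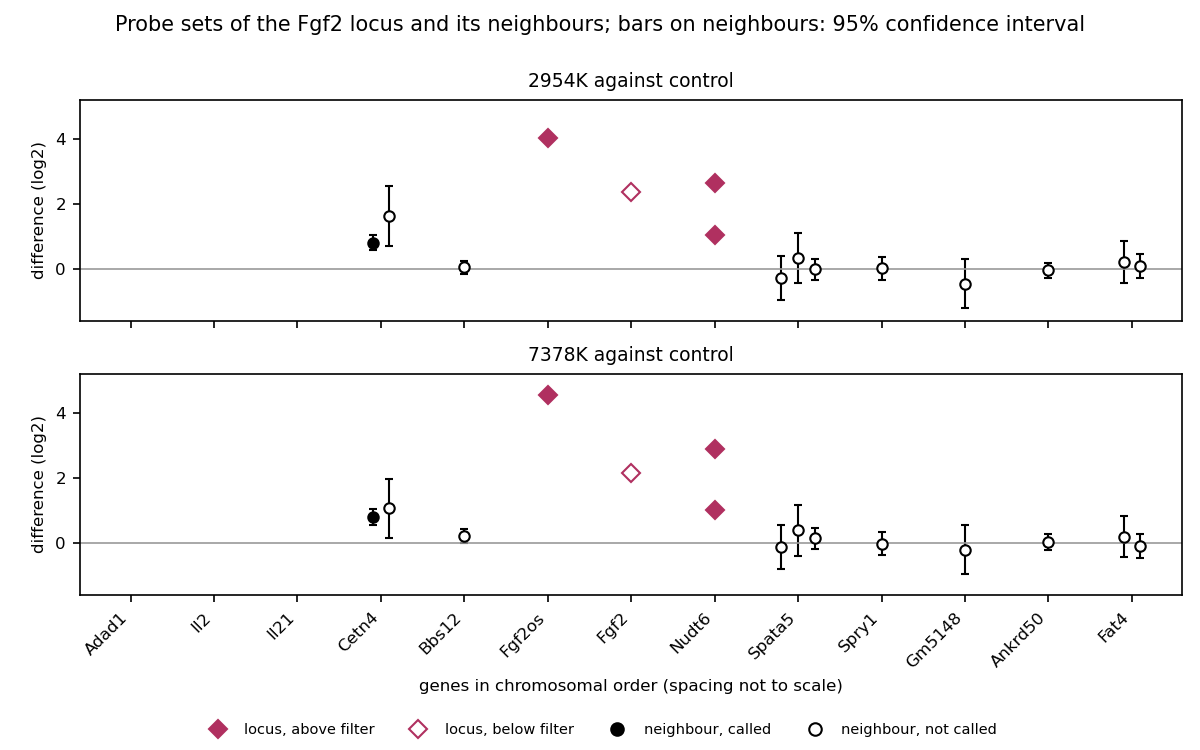
Log2 differences from control under 2954K (top) and 7378K (bottom) for the Fgf2 locus and its neighbours, in chromosomal order with spacing not to scale. Diamonds are probe sets of the locus (open where below the filter), circles are neighbours with 95% confidence intervals, and filled circles are called. Cetn4 1436617_at is the only neighbour called, at 0.80, and Spry1 lies at 0.01 and -0.02.

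The probe sets most like Fgf2os 1443200_at over the 9 arrays were listed as a description, by Pearson's r among 21915 single-symbol probe sets without predicted genes. The 9 arrays fall into a low and a high set for Fgf2os, so r over all 9 mostly reflects the gap between control and LED arrays, and r over the 6 LED arrays is given beside it. Myo5b, a myosin of membrane traffic, came first with r = 0.999 over all arrays and 0.956 over the LED arrays, and its means were 8.73, 10.20 and 10.37. Nudt6 1456945_at came second, with 0.992 and 0.742. Lad1 followed with 0.991 and 0.654, Osmr with 0.991 and 0.754, and Stat3 with 0.991 and 0.672. Osmr encodes a receptor subunit for oncostatin M, and Stat3 encodes a transcription factor downstream of such receptors.

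The levels of these genes differed from control by amounts smaller than those of Fgf2os. Lad1 stood 2.11 and 2.34 above control, Osmr 1.90 and 2.05, Stat3 1.54 and 1.82 and Myo5b 1.47 and 1.65, under 2954K and 7378K. The most opposite genes were Kpna2 (r = -0.966, differences -0.40 and -0.46), Adipor1 (r = -0.966, differences -0.60 and -0.56) and Exoc3 (r = -0.963, differences -0.28 and -0.32). Among the other passing probe sets described here, Nudt6 1424510_at had r = 0.903 (rank 224) and Fgfr1 1424050_s_at had 0.813 (rank 665). Fgfr1 1436551_at had 0.570, Fgfr3 1421841_at -0.02, Fgfr2 1433489_s_at -0.27 and Fgfr1 1425911_a_at -0.45.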

How the data were processed

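The submitters deposited values for 45101 probe sets on 9 Affymetrix mouse genome arrays, 0 of them missing. MAS5 and affy are named in the submitters' processing notes, with no version or role, and the authors deposited log2 signals. This scale was checked on the values, since the linear signals of each array had a trimmed mean of 500 with 2% trimmed. The array medians were 6.77 to 7.03, and no further scaling was applied. RNA was extracted with mirVana PARIS and labelled by the GeneChip 3′ IVT PLUS method, per the labels. Detection calls were not used, and with 3 arrays a group the number of arrays limits precision.

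The platform annotation gave 1 symbol to 34945 probe sets, several to 932 and none to 9160, besides 64 control probe sets. RefSeq (GRCm38.p6) held 34741 of the single-symbol ones. No probe set of the 6 genes had several symbols. The limma fit (version 3.58.1, R 4.3.3, and the package data.table, version 1.17.8) gave each group its own mean over all 9 arrays and used lmFit and eBayes with an intensity trend. The fitting script was tested on simulated data. Summaries and exact permutation tests were computed in Python 3.11.15 with pandas 2.3.3 and scipy 1.17.1, and plots were drawn with matplotlib 3.10.9. Where a group mean lay below the filter value, no fold was given.

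The genes, lists and markers were chosen with earlier results of these data known. Named genes were all probe sets of the 6 genes, up to 4 called genes per list or else the 2 with the smallest unadjusted p, neighbours with a passing probe set, and the 5 genes most like and 3 most unlike Fgf2os. Alternatives were no filter, a filter at the 60th percentile, quantile normalization, median centring, no intensity trend, a covariate for the 3′ minus 5′ measure, the replicate number as a block, and each array left out. Leaving out array 3 of every group was added after the data were seen, because of the lens RNA.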

Additional observations from a re-analysis of the deposited data

How the results depend on the processing

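Over 17 alternatives, 571 of 612 recomputed values of the 12 probe sets kept their direction and their side of the threshold, or moved by less than the spread between arrays where no test was made. Many differences could not change: another filter, no trend, the block or leaving out an array outside the comparison keeps them as they were. The spread allowed without a test was as large as 2.27, for Fgfr2 1420847_a_at. The count is therefore no measure of stability. Another 21 reversed, 10 lost a call, 4 gained one and 6 moved by more than the spread. Of all probe sets tested, the 148 called in 2954K against control became 85 without the intensity trend and 50 without array 3 of each group. The 594 in 7378K against control became 198 without the trend, 173 with the 3′ minus 5′ covariate and 88 without array 3 of each group. With the replicate number as a block the counts were 153, 1273 and 0. Same-numbered arrays of different groups had correlated deviations of 0.011 to 0.305, over 0.1 in 2 of 9 pairs. All 9 arrays correlated best with an array of their own number, and array 3 of each group carried the lens signal. The reported fit did not pair the arrays by number, so what same-numbered arrays share was not removed from it. No call of the 12 probe sets changed with the block. Leaving out 1 array gave 76 to 2154 calls in 2954K against control (76 without 2954K 3, 2154 without 2954K 2). It gave 136 to 3401 in 7378K against control (136 without 7378K 1, 2803 without 2954K 2, 3401 without 2954K 1) and 0 to 334 in 7378K against 2954K, where 334 came without 2954K 1 alone.

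Reversals were counted only where a test was made, and were of small or widely spread differences, none of them called. Sign changes without a test stand outside that count. Among these, Fgf2 7378K minus 2954K was -0.9262 to 0.3149 with 1 array left out. Fgfr2 1420847_a_at 7378K minus control was -2.1327 to 1.0488 with 1 array left out. For Nudt6 1424510_at, 7378K minus 2954K was 0.0041 with median centring, 0.0219 with the covariate, 0.2916 without array 3 of each group and -0.1227 to 0.1873 with 1 array left out. For Fgfr1 1425911_a_at, 7378K minus control was 0.8233 with the covariate, and 7378K minus 2954K was -0.6812 to 1.0287 with 1 array left out. For Fgfr2 1433489_s_at, 2954K minus control was -0.2626 to 0.8686 with 1 array left out. For Fgfr3 1421841_at, 2954K minus control was 0.8575 without array 3 of each group and -0.4870 to 0.6684 with 1 array left out. Its 7378K minus control was 0.052 with quantile normalization, 0.0721 with median centring, 0.596 without array 3 of each group and -0.4081 to 0.7472 with 1 array left out. Its 7378K minus 2954K was -0.2615 without array 3 of each group and -0.1103 to 0.2665 with 1 array left out. The cause of these changes was not tested.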
